A study of Mus musculus with 6 samples.

Results

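AP-1 and ATF transcription factors are described here by 10 genes, Atf3, Atf4, Fos, Fosb, Fosl1, Fosl2, Jun, Junb, Jund and Batf. Members were found by name alone, as every probe whose gene name in the scanner files was 1 of these 10. The names were carried by 12 probes of the 39429 on the array. All 12 passed the filter on dim signals, so that all 10 genes stand among the 22096 genes tested.

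AP-1 is a dimer of basic leucine zipper proteins, built from a JUN protein paired with a FOS, JUN, ATF or BATF protein. Most FOS and JUN genes are immediate early genes, which are transcribed within minutes of a mitogen, cytokine or stress signal through MAP kinases and serum response factor. ATF4 is made when stress kinases phosphorylate the initiation factor eIF2 alpha, and ATF3 is a stress-induced relative that often acts as a repressor. In monocytes and macrophages these factors are known for driving cytokine and protease genes after activation.

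The factors were measured in M-MDSCs, the monocytic kind of myeloid-derived suppressor cell, a T cell-suppressing immature myeloid cell, which had been sorted from C57BL/6 bone marrow or lung. Treatment combined azacytidine, which blocks DNA methyltransferases, with entinostat, which blocks class I histone deacetylases, and mock animals were given vehicle. Mock mice were 6 to 8 weeks old, and the age of the treated mice, the doses and the schedule are not stated in the sources used here. On every 2-colour array a Cy3-labelled mock RNA (1 to 2 mice) was set against a Cy5-labelled treated RNA (a pool of 3 to 6 mice) of the same tissue, and each tissue had 3 such arrays, labelled as biological replicates. Treated RNA always carried Cy5, so treatment and dye cannot be told apart. All bone marrow arrays lay on 1 slide and all lung arrays on another, so slide and tissue cannot be told apart either.

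The share of spots well above background, over both channels, ran from 49.9% to 58.6% on bone marrow arrays and from 60.5% to 69.5% on lung arrays. No spot was saturated. All 6 measured monocyte markers, among them Itgam, Ly6c1, Ccr2 and Csf1r, were well above background on every array in both channels. So were all 7 measured neutrophil markers, so detection alone does not tell these cell types apart. Ly6c2 and Ly6g were not among the genes tested. With 3 arrays a tissue, their number limits the precision. In bulk RNA, a change in the cells that express a gene and a change in the RNA per cell cannot be told apart. Bone marrow replicate 3 stood apart for these genes. It had the lowest mock level of the 3 bone marrow arrays for 7 of the 10 members and the lowest treated level for 8 of 10, while 34.5% and 38.6% of all genes had their lowest level there. Jun and Jund lay more than 1 log2 unit below the other arrays in its mock channel, and Atf3, Jun, Junb and Jund did so in its treated channel. A gap of that size was found for 0.122% of all genes in the mock channel and 0.475% in the treated channel. Some results are given with and without this array. Those given once include it, and their sizes can change without it.

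The sequence before the start site is shown for Atf3 and Jun, whose response differed between tissues, and for Fos and Fosb, whose levels differed most between mock tissues. The 250 bases before the annotated start are from RefSeq on GRCm38, written 5′ to 3′ on the strand of the gene. Capitals mark TGACGTCA (the cyclic AMP response element), TGACTCA (the AP-1 element), the variants TGACATCA and TTACGTCA, the part TGACG and the box TATAAA, each searched on both strands. TGACG lies within TGACGTCA, and its reverse complement lies within TTACGTCA. The variants were chosen after the promoters had been read.
Atf3, chr1:191183334-191183583, minus strand: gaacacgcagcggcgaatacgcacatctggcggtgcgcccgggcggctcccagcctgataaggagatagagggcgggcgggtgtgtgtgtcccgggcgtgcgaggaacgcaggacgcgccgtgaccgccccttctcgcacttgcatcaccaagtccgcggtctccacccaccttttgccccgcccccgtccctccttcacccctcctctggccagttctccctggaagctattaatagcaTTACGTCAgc
Fos, chr12:85473640-85473889, plus strand: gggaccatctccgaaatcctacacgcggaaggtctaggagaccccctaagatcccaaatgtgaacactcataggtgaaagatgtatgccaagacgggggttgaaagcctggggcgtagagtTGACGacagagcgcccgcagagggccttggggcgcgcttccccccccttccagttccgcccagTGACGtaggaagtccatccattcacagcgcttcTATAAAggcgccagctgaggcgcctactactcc
Fosb, chr7:19310046-19310295, minus strand: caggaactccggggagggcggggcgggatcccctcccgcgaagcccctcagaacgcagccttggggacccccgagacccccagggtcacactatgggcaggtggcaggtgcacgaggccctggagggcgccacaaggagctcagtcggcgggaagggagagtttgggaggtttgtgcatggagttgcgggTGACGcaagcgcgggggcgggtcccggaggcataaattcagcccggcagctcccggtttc
Jun, chr4:95052223-95052472, minus strand: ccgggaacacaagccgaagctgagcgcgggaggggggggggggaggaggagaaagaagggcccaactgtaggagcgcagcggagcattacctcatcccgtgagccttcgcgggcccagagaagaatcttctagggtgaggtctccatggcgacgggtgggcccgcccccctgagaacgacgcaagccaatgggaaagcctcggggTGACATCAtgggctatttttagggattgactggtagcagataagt

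RefSeq promoters were matched for 9 of the 10 members, all but Fosl1. The AP-1 element TGACTCA was found in 0 of the 9 promoters and in 4.46% of 32851 mouse promoters of the same length, and TGACGTCA in 0 of 9 and in 1.55%. The variant TGACATCA lay in the Jun promoter, from 45 to 38 bases before the start, and in 2.93% of all promoters. TTACGTCA lay in the Atf3 promoter, from 10 to 3 bases before the start, and in 0.447% of all promoters. The part TGACG was found in 6 of 9, those of Atf3, Atf4, Fos, Fosb, Junb and Batf, and in 17.8% of all promoters. Fos held it at 129 and at 66 bases before the start and had a TATAAA 33 bases before it. Each match describes the letters in this window only.

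The first comparison asked how treatment changed these factors in bone marrow M-MDSCs. Atf3, Fosb, Jun, Jund and Fosl2 fell and no member rose. By limma's moderated test with Benjamini-Hochberg adjustment over all genes at 0.05, 5 of 10 members were lower, against 7.14% of all genes called lower and 7.25% called higher (14.4% in all). The median log2 ratio of the members was -0.40, against 0.02 over all genes. The call rests on the correction within arrays. With median centring in place of loess, which moved the median of all genes in bone marrow to 0.20, 0 members and 0 genes passed, and Jun, Jund and Fosl2 turned to 0.18, 0.041 and 0.082.

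Of the ATF genes, Atf3 had log2 ratios of treated over mock of -1.99, -1.38 and -2.41 on bone marrow replicates 1, 2 and 3 (probe at chr1:192994547-192994606, mm9). All 3 arrays were far below 0, and the mean was -1.93 ± 0.52 (SD, n = 3), a 3.81-fold lower level in treated cells. The 95% interval of the log2 ratio was -2.31 to -1.55 (limma adjusted p = 0.00153). As for every member, interval and p-value rest on 1 spread per gene shared by both tissues. The SD of Atf3 in lung was 0.04, so the lung arrays narrow this interval. The mean was -1.43 with median centring (adjusted p = 0.277). Over the other alternatives Atf3 lay between -2.29 and -1.69 with adjusted p-values from 0.00110 to 0.0324. On the scale of channel levels, after equalising intensities between arrays, mock Atf3 stood at 12.92, 12.26 and 11.41 and treated Atf3 at 10.92, 10.88 and 9.002, so that no treated array reached the lowest mock array. Atf4, the mediator of the integrated stress response, had ratios of -0.12, 0.09 and -0.24 on its brighter probe, which scatter around 0 (mean -0.09 ± 0.17, adjusted p = 0.611). Its other probe gave -0.01, -0.07 and -0.08.

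Of the FOS genes, Fosb had log2 ratios of -1.37, -1.08 and -0.33 (chr7:19888168-19888227, mm9). The mean was -0.92 ± 0.54 (SD, n = 3), a 1.90-fold lower level (adjusted p = 0.0178), with replicate 3 nearest to 0. The replicate nearest to 0 also had the lowest mock level, at 7.97 against 9.81 and 8.91 on the log2 scale. The signals processed by the scanner software gave -1.54, and adjusted p-values of 0.0718 and 0.110 followed when replicate 1 or replicate 2 was left out. Fos had ratios of -0.63, 0.49 and -0.65 (chr12:86817900-86817959, mm9), with replicate 2 opposite to the others. Its mean of -0.26 ± 0.65 did not pass (adjusted p = 0.427). The Fos probe was spotted 10 times on each array, and the SD between these spots was 0.02 to 0.04, far below the spread between the arrays. Without replicate 2, Fos stood at -0.64 and passed (adjusted p = 0.0353).

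Fosl2, which encodes FRA2, had ratios of -0.46, -0.12 and -0.66 on its brighter probe (chr5:32460076-32460135, mm9), all below 0. The mean was -0.41 ± 0.27 (SD, n = 3; adjusted p = 0.0449). Its other probe, at chr5:32455088-32455147, gave 0.08, 0.15 and -0.35 (adjusted p = 0.865 among all probes), and the mean of both probes was -0.23 (adjusted p = 0.200), so the call depends on the probe. It was also lost in the bone marrow arrays alone (adjusted p = 0.0547), and adjusted p-values of 0.0589 to 0.180 followed when bone marrow replicate 1 or 3 or lung replicate 2 or 3 was left out. Fosl1, which encodes FRA1, was close to background in bone marrow, where 2 of 3 arrays were well above it in each channel. Its ratios of 0.00, 0.07 and -0.19 lay around 0 (adjusted p = 0.942).

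Of the JUN genes, Jun had log2 ratios of -0.32, -0.25 and -0.60 in bone marrow (chr4:94716928-94716987, mm9). The mean was -0.39 ± 0.18 (SD, n = 3), a 1.31-fold lower level (adjusted p = 0.0182). Jund, which is usually expressed at a steadier level than Jun, had ratios of -0.62, -0.26 and -0.52 (chr8:73224436-73224495, mm9). Its mean of -0.47 ± 0.19 was a 1.38-fold lower level (adjusted p = 0.0151). Both had all 3 arrays below 0. Without replicate 3, Jun stood at -0.29 (adjusted p = 0.0624) and Jund at -0.44 (0.0710), and without replicate 1 at -0.43 (0.0542) and -0.39 (0.0658). Junb, often an antagonist of JUN, had ratios of -0.02, -0.04 and -1.22, so that its mean of -0.43 ± 0.69 came from replicate 3 and did not pass (adjusted p = 0.213). Without that array Junb stood at -0.03.

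Batf, which pairs with JUN proteins in lymphocytes and dendritic cells, had ratios of 0.15, 0.04 and -0.06 (mean 0.04 ± 0.10, adjusted p = 0.680). Without replicate 1, only Atf3 passed among the members. Without replicate 3, Atf3 (-1.69, adjusted p = 0.0101) and Fosb (-1.22, 0.0103) passed. Of the monocyte markers in bone marrow, 3 of 6 were lower (Ccr2 -0.84, Csf1r -1.14 and Cx3cr1 -1.71) and 1 higher (Ly6c1 0.65). Their summed level ranged from 114541 to 120581 in mock and from 112700 to 133865 in treated cells. None of 7 neutrophil markers passed in limma (1 had an unadjusted p under 0.05). The part of these markers in the result was not tested.

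**Figure D1:**
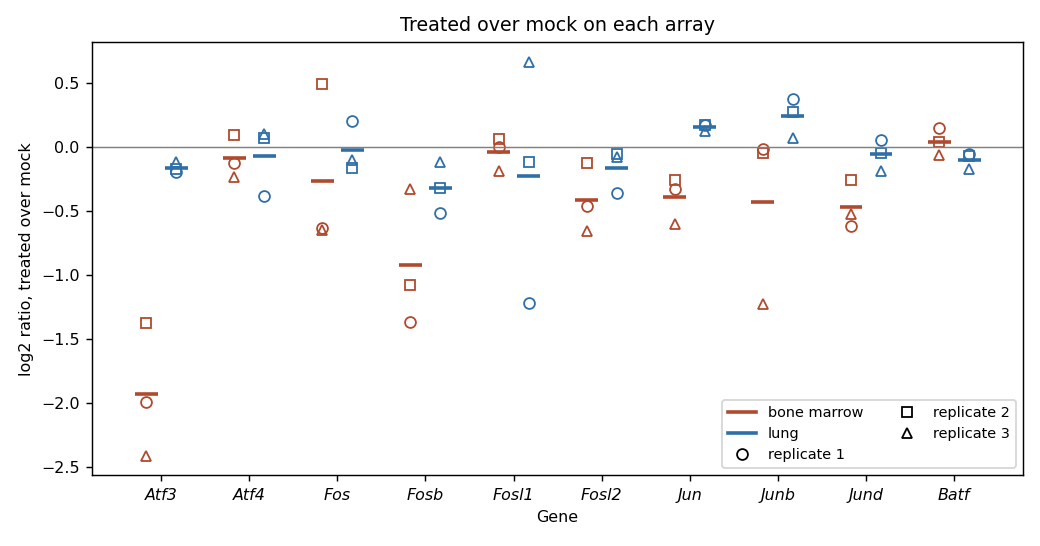
Log2 ratio of treated over mock (vertical axis) for the 10 genes on each array, with bone marrow in red, lung in blue, a symbol for each replicate and a bar at the mean of 3 arrays. All 3 bone marrow arrays of Atf3 lie between -2.41 and -1.38, while the lung arrays lie between -0.19 and -0.11.

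The same question was asked in lung M-MDSCs. None of the 10 members passed in limma, and 0 had an unadjusted p under 0.05, against 34% of all genes called (20% higher, 14% lower). The median log2 ratio of the members was -0.08, against 0.01 over all genes. Every alternative run but 1 gave 0 as well. Without bone marrow replicate 3, whose scatter enters the shared spread, the lung values of Fosb (-0.32) and Junb (0.24) passed with adjusted p = 0.0449 each.

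Atf3 had log2 ratios of -0.19, -0.17 and -0.11 in lung, all slightly below 0 (mean -0.16 ± 0.04, adjusted p = 0.498). Atf4 had -0.38, 0.07 and 0.10. Neither gene departed from 0 beyond the spread used in the test. Fosb had -0.52, -0.32 and -0.11 (mean -0.32 ± 0.20, adjusted p = 0.218) and Fos 0.21, -0.16 and -0.10 (mean -0.02 ± 0.20, adjusted p = 0.955). Fosl1 had the widest scatter, with -1.22, -0.12 and 0.67 from array to array (mean -0.22 ± 0.95). Fosl2 had -0.36, -0.05 and -0.08.

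Jun had log2 ratios of 0.18, 0.18 and 0.13 in lung, 3 of 3 above 0 and close together (mean 0.16 ± 0.03, adjusted p = 0.154). Junb had 0.37, 0.28 and 0.07, also 3 of 3 above 0 (mean 0.24 ± 0.15, adjusted p = 0.440). Jund had 0.06, -0.05 and -0.18, on both sides of 0. Batf had -0.06, -0.07 and -0.17 (mean -0.10 ± 0.06, adjusted p = 0.271). The 95% intervals of the lung log2 ratios reached from -0.54 to 0.22 for Atf3 and from -0.02 to 0.34 for Jun. That of Fos ran from -0.51 to 0.47. Lung ratios within these limits are not excluded by this fit, which uses 1 spread per gene for both tissues. Bone marrow scatter therefore widens these 3 intervals. The SD was 0.04 in lung and 0.52 in bone marrow for Atf3, 0.03 and 0.18 for Jun, and 0.20 and 0.65 for Fos. With median centring, which moved the median of all genes in lung to 0.12, Atf3, Atf4, Fos, Fosl2, Jund and Batf changed sign, none passing.

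Whether the response differed between tissues was tested directly as lung minus bone marrow. Atf3 and Jun differed, which makes 2 of 10 members, both higher in lung, against 9.78% of all genes called higher and 5.46% called lower (15.2% in all). For Atf3 the difference was 1.77 on the log2 scale (95% interval 1.23 to 2.31, adjusted p = 0.00428). For Jun, whose ratios were below 0 on all bone marrow arrays and above 0 on all lung arrays, it was 0.55 (0.30 to 0.81, adjusted p = 0.0164). Neither difference passed with median centring (1.58 for Atf3, adjusted p = 0.228, and 0.31 for Jun, 0.830). The Atf3 difference was 2.14 with scale normalization (adjusted p = 0.0735), and the Jun difference was 0.53 with the scanner software's processed signals (0.0625) and 0.54 without lung replicate 2 (0.0510). Jund (0.41, interval 0.13 to 0.69, adjusted p = 0.0588), Fosb (0.61, 0.02 to 1.20, 0.142) and Junb (0.67, -0.05 to 1.38, 0.176) did not pass. Without bone marrow replicate 3 the Fosb difference was 0.91 and passed (adjusted p = 0.0203).

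The mock cells show where these genes stood in animals given vehicle, which were other animals than the treated ones. In mock cells Fosb, Fos, Jun, Atf3, Jund, Fosl1 and Fosl2 were higher in lung than in bone marrow and Batf was lower. That is 7 members higher and 1 lower of 10, against 31.9% of all genes called higher and 33.1% called lower (64.9% in all), so most genes differed. The median difference of the members was 1.51 on the log2 scale, against 0.00 over all genes. The value for all genes lies near 0 by construction, since all arrays were given the same distribution of mean intensities. How evenly the called genes split into higher and lower depends on that step too. Levels below are log2 values of 1 channel after loess and equalised intensities, and they compare samples for 1 gene, not genes with each other.

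Mock Fosb stood at 9.81, 8.91 and 7.97 in bone marrow and at 12.40, 12.15 and 12.37 in lung, with a wide gap between the tissues. The difference was 3.41 (95% interval 2.50 to 4.31, adjusted p = 0.000146). Mock Fos stood at 13.21, 12.39 and 12.30 in bone marrow and at 14.43, 15.13 and 15.09 in lung, again without overlap (difference 2.25, 1.62 to 2.88, adjusted p = 0.000191). Mock Fosl1 was 6.85, 6.96 and 6.78 in bone marrow and 8.98, 7.79 and 7.30 in lung (difference 1.16, adjusted p = 0.0243), and it lost the call without any 1 of the bone marrow arrays (adjusted p from 0.0626 to 0.0784) and without normalization between arrays (0.0706). Mock Fosl2 was 0.58 higher in lung (adjusted p = 0.00961).

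Mock Jun stood at 13.75, 13.41 and 11.00 in bone marrow, where replicate 3 lay far below the others, and at 14.46, 14.86 and 14.93 in lung. The difference was 2.03 (0.56 to 3.51, adjusted p = 0.0227). Without bone marrow replicate 3 it was 1.17 with a smaller adjusted p of 0.00172, and without lung replicate 2 the adjusted p was 0.0569. Mock Jund stood at 12.15, 11.84 and 10.78 in bone marrow and at 13.28, 13.49 and 13.60 in lung (difference 1.87, adjusted p = 0.00117). Mock Junb ran the other way, at 10.69, 10.51 and 9.89 in bone marrow and 9.67, 9.96 and 9.95 in lung, with overlap (difference -0.50, adjusted p = 0.0527). Without bone marrow replicate 3 the Junb difference was -0.74 and passed (adjusted p = 0.00232), while without normalization between arrays it was 0.41.

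Mock Atf3 stood at 12.92, 12.26 and 11.41 in bone marrow and at 13.91, 14.38 and 14.25 in lung, with every lung array above every bone marrow array. The difference was 1.98 (1.21 to 2.76, adjusted p = 0.00118). Mock Atf4 was close in both tissues, with a difference of 0.24 that did not pass (adjusted p = 0.0900). Mock Batf was 0.26 log2 units lower in lung (-0.26, adjusted p = 0.0152), a direction that turned to 0.69 without normalization between arrays, which moved the median of all genes to 0.33. The Batf call was lost without lung replicate 2 or 3 (adjusted p = 0.0637 and 0.0629).

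In treated cells, Fosb, Atf3, Jun, Fos, Jund, Fosl1, Fosl2 and Atf4 were higher in lung and Batf lower (8 and 1 of 10, against 30.5% and 31.3% of all genes, 61.8% in all). The median difference of the members was 1.62, against -0.01 over all genes, a value that the normalization between arrays holds near 0. Treated Atf3 stood at 10.92, 10.88 and 9.002 in bone marrow and at 13.72, 14.20 and 14.13 in lung, a difference of 3.75 (2.64 to 4.86, adjusted p = 0.000305), and 3.12 without bone marrow replicate 3. Fosb differed by 4.01 (3.52 to 4.51), Jun by 2.59 (0.92 to 4.25), Fos by 2.49 (1.81 to 3.16) and Jund by 2.28 (1.52 to 3.03). Without bone marrow replicate 3 the Jun difference was 1.62. Junb differed by 0.17 (-0.93 to 1.26, adjusted p = 0.776), and by -0.47 (adjusted p = 0.00657) without that replicate, since its treated level there was 8.67 against 10.67 and 10.46 on the other bone marrow arrays. Atf4 differed by 0.26 (adjusted p = 0.0406), a call that was lost without bone marrow replicate 1 or 3 or lung replicate 2 or 3 (adjusted p from 0.0658 to 0.154). Batf was -0.41 (adjusted p = 0.00932) and turned to 0.55 without normalization between arrays. The treated difference of a gene is its mock difference plus the difference in response, so these comparisons share their data.

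**Figure D2:**
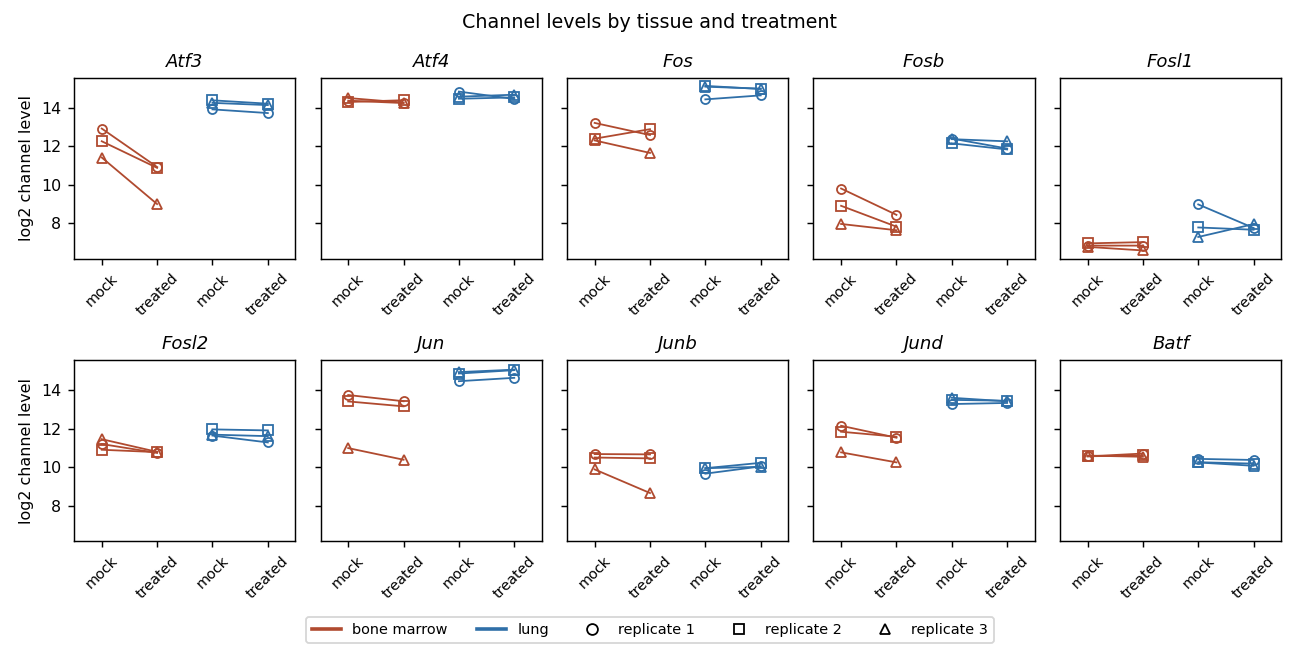
Log2 channel level (vertical axis) of each gene in mock and treated cells of bone marrow (red) and lung (blue), with a line for each array and a symbol for each replicate. Jun falls near 11.00 in mock cells and 10.39 in treated cells of bone marrow replicate 3 and lies above 13 on the other 2 bone marrow arrays.

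**Figure D3:**
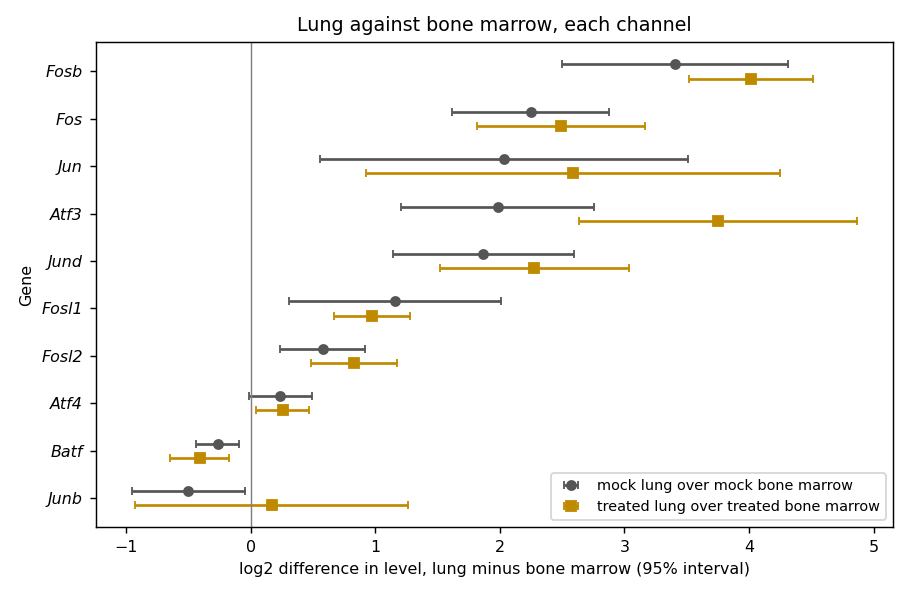
Log2 difference in level between lung and bone marrow (horizontal axis) in mock cells (grey circles) and treated cells (yellow squares), with 95% intervals from limma over 3 arrays a tissue. Atf3 moves from 1.98 in mock to 3.75 in treated cells, while Batf stays below 0 in both.

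Markers of other cell types differed between the same groups. In mock cells the 9 macrophage markers were all higher in lung than in bone marrow, with a summed level of 33575 to 42218 against 3599 to 3887. Of the lung epithelial markers 5 of 6 were higher (15503 to 30143 against 638 to 664), and of the endothelial markers 4 of 5 (6290 to 8450 against 1684 to 1844). Of the neutrophil markers 5 of 7 were lower in lung (20290 to 56012 against 327237 to 340740). B cell markers were higher for 5 of 5 (4032 to 5833 against 1206 to 1381). NK and T cell markers were higher for 5 of 6 and lower for 1, while their summed level was lower in lung (3776 to 4085 against 5179 to 6184). Of the monocyte markers 2 of 6 were higher (126110 to 163864 against 114541 to 120581). Mertk, Sftpc, Sftpa1, Cdh5, Ramp2, Ms4a1, Ncr1 and Klrb1c were not well above background on any bone marrow array. In treated lung against treated bone marrow, 9 of 9 macrophage, 5 of 6 epithelial, 5 of 5 endothelial, 3 of 5 B cell, 4 of 6 NK and T cell and 3 of 6 monocyte markers were higher, and 6 of 7 neutrophil, 1 NK and T cell and 1 monocyte marker lower. The remaining neutrophil marker was higher. In treated lung against mock lung, 9 of 9 macrophage, 5 of 6 epithelial, 4 of 5 endothelial and 4 of 7 neutrophil markers were higher, and 5 of 5 B cell and 3 of 6 NK and T cell markers lower. Of the monocyte markers 2 were higher and 1 lower. The part of these cells in the levels of Fosb, Fos, Jun and the other members was not tested.

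The other genes of the pathway were taken from lists, whose counts are read against the share of all genes called. That share was 7.25% higher and 7.14% lower in treated bone marrow, 20% and 14% in treated lung, and 31.9% and 33.1% between mock tissues. Of 19 MAP kinase cascade genes, 0 were higher and 3 lower in treated bone marrow (median -0.16): Rps6ka3, the kinase RSK2, by -0.49 ± 0.18, Map2k7, an activator of JNK, by -0.34 ± 0.06, and Map2k2 by -0.27 ± 0.09. In lung 2 were higher and 3 lower of 19 (median -0.04), below the 34% of all genes called. They included Mapk3 (0.47 ± 0.32), which encodes ERK1, and Mapk8 (-0.36 ± 0.24), which encodes JNK1. Of 9 MAP kinase phosphatases, which switch these kinases off, 0 passed in bone marrow in limma (2 at an unadjusted p under 0.05), and in lung Dusp6 (0.91 ± 0.23) and Dusp16 (0.78 ± 0.51) were higher. Of the 6 genes of serum response factor and its cofactors, Mrtfa was lower in bone marrow (-0.97 ± 0.17) and in lung (-0.62 ± 0.25), where Elk1 (1.07 ± 0.18) and Mrtfb (0.71 ± 0.09) were higher. Between mock tissues, 8 of the 19 cascade genes were higher and 8 lower in lung. The counts were 7 and 1 for the 9 phosphatases and 2 and 1 for the 6 genes of serum response factor and its cofactors.

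Of 15 other immediate early genes measured, 4 were lower and 1 higher in treated bone marrow (median -0.22). Klf6 (-0.58 ± 0.29), Klf2 (-0.91 ± 0.47), Btg2 (-0.55 ± 0.34) and Nr4a2 (-0.65 ± 0.14) fell and Myc (1.26 ± 0.20) rose. In lung 3 were higher and 2 lower of 15 (median -0.07), about the share of all genes (34%). There Egr2 (1.68 ± 0.25), Egr1 (1.49 ± 0.10) and Klf6 (0.62 ± 0.04) rose and Nr4a2 (-1.35 ± 0.54) fell. Klf6 therefore passed in opposite directions, and its response differed by 1.20 (adjusted p = 0.00293). In mock cells 9 of 15 were higher in lung, among them Zfp36 (3.39), Nr4a1 (3.20) and Nr4a2 (2.59), and 1 was lower, against 31.9% and 33.1% of all genes.

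Of 26 other basic leucine zipper factors, 1 was higher and 4 lower in treated bone marrow (median -0.05), with Atf5 at 0.53 ± 0.22, Cebpd at -0.94 ± 0.18, Bach1 at -0.66 ± 0.39 and Ddit3, the stress factor CHOP, at -0.41 ± 0.20. In lung 6 were higher and 5 lower of 26 (median 0.12), near the 20% and 14% of all genes. Maf (1.36 ± 0.12), a macrophage factor, and Jdp2 (1.00 ± 0.24), a dimer partner of JUN, rose. In mock cells 15 were higher and 5 lower in lung, against 31.9% and 33.1% of all genes, with Crem, a cyclic AMP-responsive factor, at 2.04.

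The ATF4 branch was followed through kinases and targets. Of the 4 eIF2 alpha kinases, Eif2ak4, the amino acid sensor GCN2, was higher in bone marrow (0.30 ± 0.08) and in lung (0.50 ± 0.15), where Eif2ak2 (-0.48 ± 0.14) and Eif2ak3 (-0.34 ± 0.19) were lower. Of 20 ATF4 target genes, 7 were higher and 2 lower in bone marrow (median 0.28), against 7.25% and 7.14% of all genes. Those with the smallest p were Phgdh (1.29 ± 0.38) and Shmt2 (0.58 ± 0.23) of serine and glycine metabolism, the transporter Slc7a5 (0.58 ± 0.14) and Aldh18a1 (0.62 ± 0.23) of proline synthesis. In lung 5 were higher and 1 lower of 20 (median 0.14), against 20% and 14% of all genes, with Slc7a11 at 0.74 ± 0.22 and Ddit3 at -0.35 ± 0.05. Atf4 itself did not pass in either tissue. Between mock tissues, 0 of the 4 kinases were higher and 3 lower in lung, and 11 of the 20 targets were higher and 3 lower. The shares of all genes were 31.9% and 33.1%.

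Of 18 AP-1 target genes, 3 were higher and 0 lower in treated bone marrow (median 0.13): Spp1 (1.07 ± 0.10), Ccnd1 (1.17 ± 0.43) and Plau (0.32 ± 0.08). In lung 10 were higher and 0 lower (median 0.84), against 20% and 14% of all genes. The collagenase Mmp13 had the smallest p (2.74 ± 0.11), followed by osteopontin, Spp1 (1.85 ± 0.25), the macrophage elastase Mmp12 (1.80 ± 0.27) and the urokinase gene Plau (1.25 ± 0.16). The other 8 did not pass in lung, among them Ptgs2 (-0.51), Hbegf (-0.35), Gadd45b (-0.12) and Vegfa (-0.11), which were named after their values were seen. The response was larger in lung for 7 of 18, with Mmp13 at 2.78 and Mmp12 at 2.03. In the same lung samples 9 of 9 macrophage markers rose and 0 of the 10 members passed, and the part of these cells in the target genes was not tested. In mock cells 15 of 18 were higher and 1 lower in lung, against 31.9% and 33.1% of all genes, Ccnd1 by 2.99 and Hmox1 by 1.86.

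**Figure D4:**
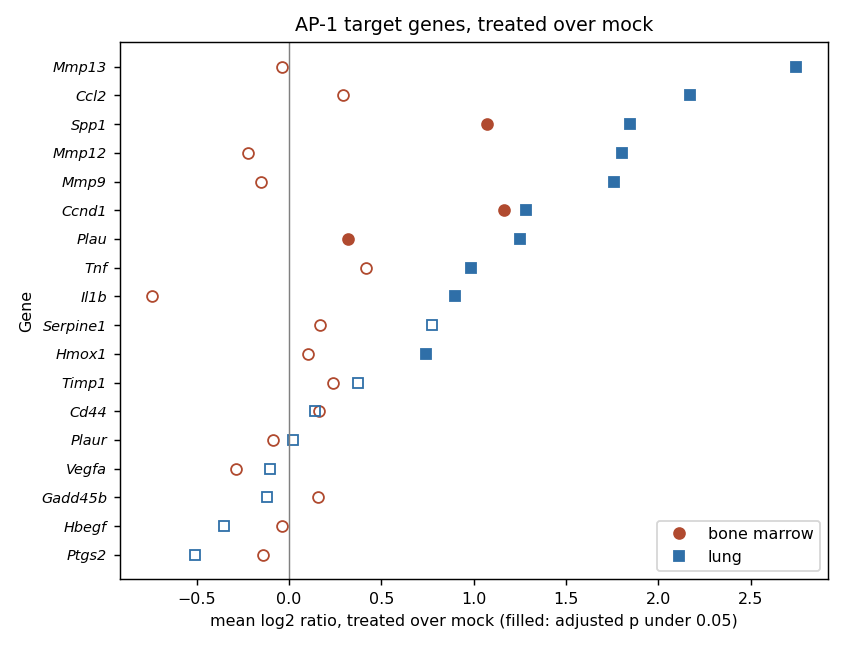
Mean log2 ratio of treated over mock over 3 arrays (horizontal axis) for 18 AP-1 target genes in bone marrow (red circles) and lung (blue squares), filled where the adjusted p of limma was under 0.05. Mmp13 lies at 2.74 in lung and -0.04 in bone marrow.

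By Euclidean distance over the 6 log2 ratios, the genes nearest to Atf3 among 15104 were Camk1d (distance 1.02), Ifi207, Clec4a1, Ptpro and Clec4a3, whose bone marrow log2 ratios lay between -1.36 and -1.18. Those nearest to Fos were Atxn7l3 (distance 0.53), Wipf1, Tm6sf1, Ppp3r1 and Dnajb9. These are descriptions without a test, and the arrays share slides and dyes.

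**Figure D5:**
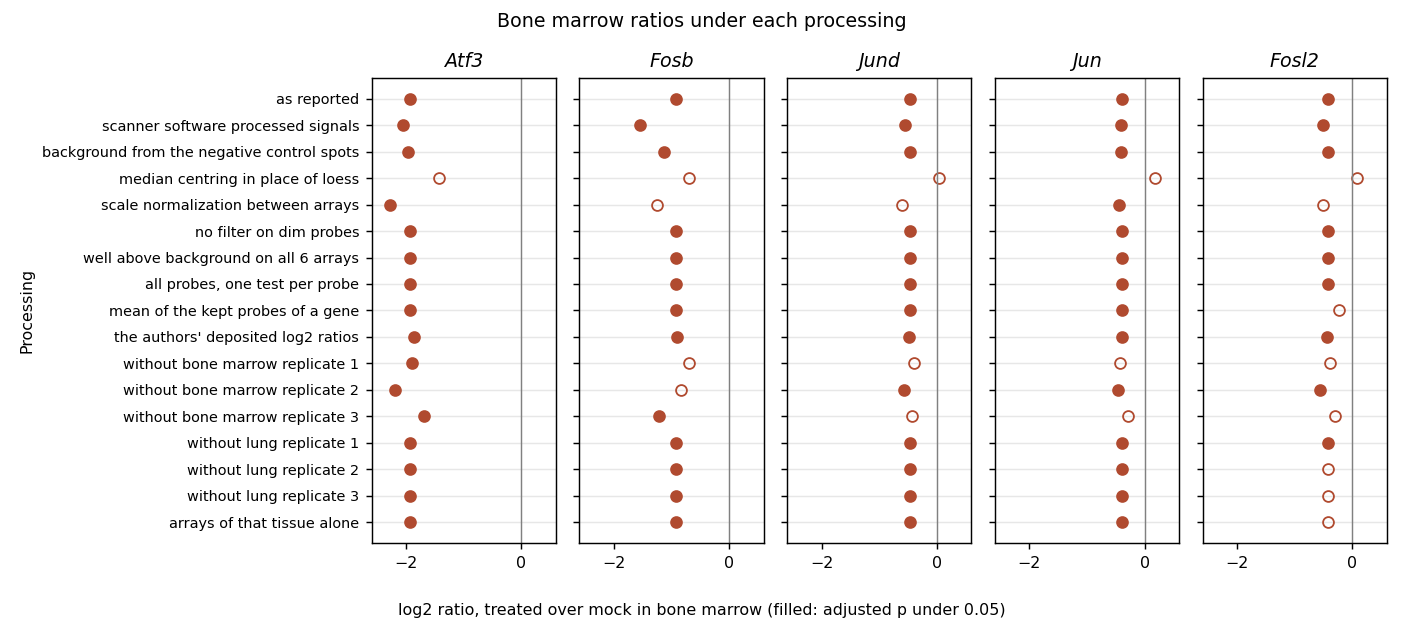
Log2 ratio of treated over mock in bone marrow (horizontal axis) for the 5 members that fell, under each way of processing the arrays (rows), filled where the adjusted p was under 0.05. Atf3 is filled in every row but that of median centring, at -1.43, while the other 4 genes lose the threshold in several rows.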

How the data were processed

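Spot intensity, processed intensity and a log10 ratio stand in the deposited scanner files (Agilent Feature Extraction 10.7.3.1, mm9 positions, per the file headers). The authors' deposited matrices hold log2 ratios made with limma, per the submitters' processing notes. Their headings name mock over treated, but the values equal Cy5 over Cy3 with normexp and loess, so the dyes in the labels were followed and positive means higher in treated cells. Here, limma 3.58.1 in R 4.3.3 corrected mean signals and median local backgrounds by normexp (offset 50) and loess within arrays, left out control and outlier spots and averaged the spots of a probe. A probe was kept if well above background on at least 2 arrays of a tissue in a channel, and the brightest kept probe stood for a gene. A mean per tissue was fitted to the log2 ratios with eBayes (residual df 4, prior df 3.52), and to channel levels after equalising mean intensities between arrays. Tests were two-sided, with Benjamini-Hochberg adjustment over all 22096 genes at 0.05, and errors are SDs between arrays. The fit was tested on simulated data. Named genes were all 10 members with every probe, up to 4 genes with the smallest p of each list, and the 5 genes nearest to Atf3 and Fos. Cell type markers, Nr4a2 in bone marrow, and Ptgs2, Hbegf, Gadd45b and Vegfa in lung were named beyond this rule. Members and lists were chosen with earlier results of these data known.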

Additional observations from a re-analysis of the deposited data

Results flagged for a closer look

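The response to treatment differed between tissues for Atf3 and Jun in the direct test of lung minus bone marrow in limma. The difference in log2 ratio was 1.77 for Atf3 (adjusted p = 0.00428), with 3 of 3 lung arrays above every bone marrow array. It was 0.55 for Jun (adjusted p = 0.0164), with 3 of 3 bone marrow arrays below 0 and 3 of 3 lung arrays above 0. Slide and tissue cannot be told apart.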

How the results depend on the processing

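Bone marrow calls depended on the normalization and on single arrays. With median centring 0 members and 0 genes passed in bone marrow (3951 genes at an unadjusted p under 0.05), and Jun (0.18), Jund (0.041) and Fosl2 (0.082) turned. It left 963 genes in lung, 890 of them higher, against 7510 with 4410 higher, and 0 members and 33 genes (28 higher, against 2162 of 3368) for the tissue difference. Scale normalization left 2 members in bone marrow (Atf3 and Jun) and 1 in the difference (Jun), and processed signals left 1 in the difference (Atf3). Processed signals raised the bone marrow gene count from 3180 to 6464 and the background from negative control spots to 5587. Without normalization between arrays 9468 genes passed in mock cells, 8146 higher, against 14344 with 7039 higher, and 8008 of 9404 were higher in treated cells, against 6745 of 13651. Batf turned to 0.69 in mock and 0.55 in treated cells. The causes were not tested.

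Leaving out 1 array gave 1 to 5 members and 995 to 4078 genes in bone marrow, 0 to 2 and 5144 to 7773 in lung, 1 to 3 and 1504 to 2848 for the difference, 6 to 8 and 12542 to 14256 in mock cells, and 8 to 9 and 11482 to 14304 in treated cells. Junb in treated cells ranged from -0.47, without bone marrow replicate 3, to 0.54. The gene count in bone marrow was 1573, 995 and 1199 when bone marrow arrays 1, 2 and 3 were dropped in turn and 1918 when lung replicate 2 was, and that of the difference 1968, 1504 and 2239 without bone marrow replicates 1, 2 and 3. Without lung replicate 2 the difference held 1 member.

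Whether replicate numbers pair the tissues cannot be settled with 3 arrays a tissue. The correlations of same-numbered deviations in log2 ratio were 0.00, 0.12 and 0.05. Those of differently numbered ones ran from -0.12 to 0.04. Same-numbered deviations correlated at -0.14, -0.09 and -0.06 in mock levels and at -0.20, 0.22 and -0.03 in treated levels. Differently numbered ones ran from -0.08 to 0.14 in mock levels and from -0.27 to 0.26 in treated levels. With the replicate number as a block, 2 members and 2859 genes passed for the difference, 8 members and 13320 genes in mock cells, and 8 members and 12772 genes in treated cells, where Atf4 (adjusted p = 0.0712) lost its call.

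The channel levels with a background from negative control spots were an alternative chosen after seeing the data, and gave 9 members in mock cells, with Junb at -0.51 (adjusted p = 0.0460), and 9 in treated cells. After normexp the negative control spots had a median Cy5 signal of 240.3 (bone marrow replicate 1) and 87.0 (lung replicate 2), against 13.3 to 16.0 on the others, which limits the ratios of dim genes such as Fosb and Fosl1.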
